A study of Mus musculus with 4 samples.

Results

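A set of 10 genes of the red cell lineage was followed in stem cells sorted from mouse bone marrow, with and without CAG-CreERT2 on floxed alleles of Ddx21, which encodes a nucleolar RNA helicase. They are the transcription factors Gata1 and Klf1, the nuclear protein Hemgn, the erythropoietin receptor Epor, the adult globins Hba-a1, Hba-a2, Hbb-bs and Hbb-bt, and the carbonic anhydrases Car1 and Car2. They were chosen by name, and all 10 were found among the 12390 genes of the deposited table. There were 2 libraries in each of 2 groups. Control libraries came from fl/fl mice without Cre, labelled WT. Knockout libraries came from fl/fl mice with CAG-CreERT2, labelled KO, so both groups carry the floxed alleles. CAG is a promoter active in most tissues and CreERT2 a recombinase that needs tamoxifen, so recombination need not be limited to blood cells. All cells were sorted as Lin-, Sca-1+, c-Kit+, CD48-, CD150+. The sources used here do not give the age or strain of the mice, whether or when they received tamoxifen, or whether each library came from a separate animal, and the p-values therefore speak only for the spread among these libraries, which may be technical.

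Red cells arise from stem cells through megakaryocyte and erythroid progenitors. GATA1 and KLF1 are the transcription factors that switch on the erythroid programme, erythropoietin acting through its receptor keeps the progenitors alive, and globin and carbonic anhydrase transcripts accumulate as the cells mature, alpha and beta chains pairing to form hemoglobin. Sorted stem cells precede most of this programme, although Gata1 is also used by megakaryocytes, eosinophils, basophils and mast cells.

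Libraries held between 43218009 and 62871440 reads on the genes of the table, as recovered from the deposited values. Values are RPKM, reads divided by the length of the transcript and by the size of the library. Fold changes are knockout minus control on the log2(RPKM + 1) scale with their SE, and understate the change of low genes. Each adjusted p comes from a limma fit over 11742 genes (Benjamini-Hochberg), and a gene is called where it is under 0.05. Ddx21 itself stood at 11.0 and 12.1 RPKM in control and at 6.20 and 6.60 RPKM in knockout (log2 fold change -0.76, SE 0.30, limma adjusted p = 0.158). The deposited scaling carried an overall shift, with a median log2 fold change of 0.31 over all tested genes. Of the 11 stem cell markers listed, 10 were in the table, among them Kit between 44.0 and 64.5 RPKM, Slamf1, which encodes CD150, between 3.85 and 10.3 RPKM, and Cd48 between 20.7 and 32.4 RPKM in a gate set to exclude its protein. Neutrophil and myeloid progenitor markers summed to between 31358 and 71457 RPKM.

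The globin genes come in near-identical copies, and their sequences show how far the values of each copy can be read on their own. Hba-a1 lies on chromosome 11 at 32283511 to 32284465 and Hba-a2 at 32296489 to 32297298 on the same strand (mm10, GENCODE M21). Hbb-bs lies on chromosome 7 at 103826534 to 103828096 and Hbb-bt at 103812524 to 103813996, both on the minus strand. Each gene has 3 exons in the transcript used here. The coding sequences of Hba-a1 and Hba-a2, 426 bases without the stop codon, differed at 1 base, C381T, counted from 1 at the A of the start codon with the Hba-a1 base first. Those of Hbb-bs and Hbb-bt, 441 bases, differed at 1 base, C417T, with the Hbb-bs base first. Both differences leave the encoded protein the same. The coding stretches around them, printed because these bases are all that separates the copies in the coding sequence, come from the GENCODE M21 transcripts, from base 351 to 411 for the alpha pair and from base 387 to 441 for the beta pair, with the base that differs in a capital letter.
Hba-a1: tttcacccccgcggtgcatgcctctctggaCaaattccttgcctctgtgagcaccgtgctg
Hba-a2: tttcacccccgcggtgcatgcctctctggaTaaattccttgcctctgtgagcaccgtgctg
Hbb-bs: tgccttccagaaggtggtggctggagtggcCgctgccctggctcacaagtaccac
Hbb-bt: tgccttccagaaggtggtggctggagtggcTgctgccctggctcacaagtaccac

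Of the 50-base words in the Hba-a1 transcript 67.5% also occur in the Hba-a2 transcript, and 86.9% of those of Hba-a2 occur in Hba-a1. For the beta pair the shares were 65.8% of Hbb-bs words and 58.3% of Hbb-bt words, and no word was shared between Hba-a1 and Hbb-bs. Most stretches that tell the copies apart are therefore outside the coding sequence, and no source used here says how the authors counted reads that match both copies. Values of single copies are uncertain for this reason, and the sum of each pair is given beside them.

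Promoters were searched on both strands over the 250 bases before each RefSeq start (GRCm38.p6). The alpha copies were identical over 247 of 247 compared bases, the Hba-a2 window shifted by 3. CACCC, the core of the sequence KLF1 is known to bind, occurred 2 times in Hba-a1 and in Hba-a2, 1 time in Hbb-bs and 3 times in Hbb-bt. A GATA word, AGATAA or TGATAA or AGATAG or TGATAG, was found in Hba-a1, Hba-a2, Hbb-bs, Klf1, Epor and Hemgn, and not in Hbb-bt or Gata1. The Gata1 and Hemgn windows belong to starts inside the gene spans given below, and the outer ends of those spans were not searched. CCAAT occurred 1 time in Hba-a1, Hba-a2 and Hbb-bs and 3 times in Hbb-bt. Among all 32851 RefSeq promoter windows of this length, 26.5% held a GATA word, 52.0% CACCC and 33.85% CCAAT. RefSeq promoters were matched by symbol for 8 of the 10 genes, and Car1 and Car2 were not matched.

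Gata1 (chromosome X, 7959260 to 7978071, minus strand), the factor erythroid and megakaryocyte cells depend on, measured 30.5 and 19.8 RPKM in control and 37.0 and 50.5 RPKM in knockout. Both knockout libraries lay above both control libraries. The mean rose from 25.2 ± 7.54 to 43.7 ± 9.51 RPKM (SD, n = 2 per group), a log2 fold change of 0.79 (SE 0.21, limma adjusted p = 0.00851). Hemgn (chromosome 4, 46393989 to 46413506, minus strand), a nuclear protein of blood progenitors that GATA1 is known to activate, stood at 14.1 and 10.9 RPKM in control and at 18.4 and 28.4 RPKM in knockout. Its groups did not overlap either, and it rose by a log2 fold change of 0.83 (SE 0.25, limma adjusted p = 0.0249). In bulk libraries, a change in the number of cells of a type and a change in RNA per cell cannot be told apart.

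Klf1 (chromosome 8, 84901928 to 84905291), the factor that opens the adult beta globin gene, stood at 20 and 13.0 RPKM in control and at 29.5 and 24.6 RPKM in knockout. The groups did not overlap, but the log2 fold change of 0.70 (SE 0.23, limma adjusted p = 0.0609) missed the threshold. Epor (chromosome 9, 21958897 to 21963506, minus strand), through which erythropoietin signals, stood at 11.4 and 8.17 RPKM in control and at 15.3 and 19.0 RPKM in knockout. Its log2 fold change was 0.76 (SE 0.27, limma adjusted p = 0.0865), again without overlap and short of the threshold. The 4 regulators together summed to 75.9 and 51.9 RPKM in control and to 100.2 and 122 RPKM in knockout. Control replicate 2 was the lowest library for all 4, and the 2 knockout libraries changed places between Klf1, higher in replicate 1, and the other 3.

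**Figure D1:**
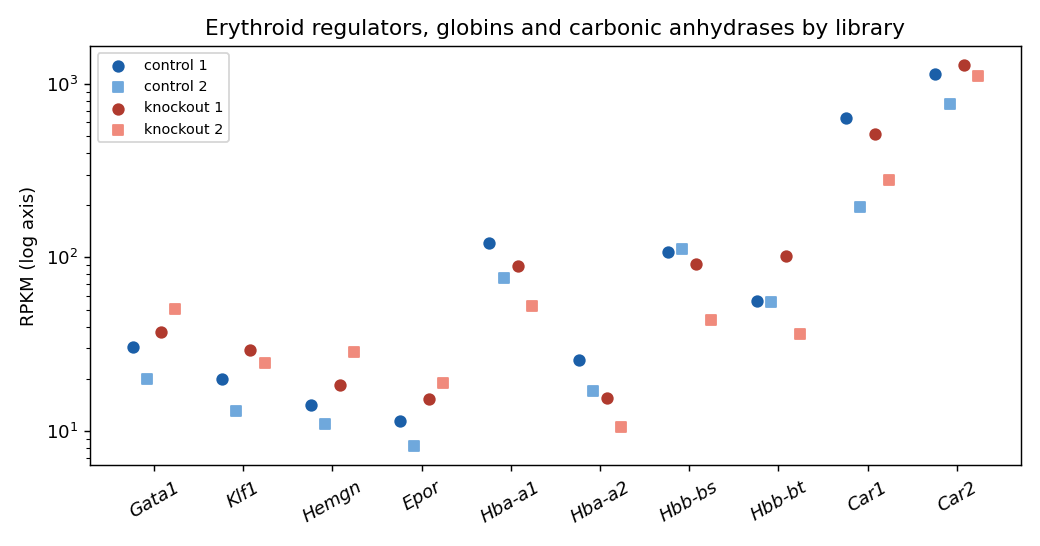
RPKM (log axis) of the 10 genes in each library, circles for replicate 1 and squares for replicate 2, blue for control and red for knockout. Gata1, Klf1, Hemgn and Epor lie higher in both knockout libraries, Hba-a2 and Hbb-bs lie lower in both, and the groups overlap for the other 4 genes.

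The adult globins did not follow the regulators. Hbb-bs stood at 107 and 111 RPKM in control and at 91.4 and 43.7 RPKM in knockout. Both knockout libraries lay below both controls, and the knockout libraries lay far apart. The mean fell from 109 ± 2.89 to 67.5 ± 33.7 RPKM (SD, n = 2 per group), and the log2 fold change was -0.78 (SE 0.18, limma adjusted p = 0.00115). The limma fit used the spread of genes of like level in place of each gene's own, so the wide knockout SD of Hbb-bs did not enter its p-value.

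Hbb-bt stood at 56.2 and 55.2 RPKM in control and at 102 and 36.0 RPKM in knockout. The control libraries lay close together between the 2 knockout values, and the log2 fold change was 0.12 (SE 0.19, limma adjusted p = 0.670). Hba-a1 stood at 121 and 76.4 RPKM in control and at 89.4 and 52.8 RPKM in knockout, with overlapping groups and a log2 fold change of -0.48 (SE 0.18, limma adjusted p = 0.135). Hba-a2 stood at 25.8 and 16.9 RPKM in control and at 15.5 and 10.6 RPKM in knockout. Its groups did not overlap, and its log2 fold change was -0.67 (SE 0.25, limma adjusted p = 0.124). For all 4 globins knockout replicate 2 was the lowest library.

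The RPKM of the copies were also summed, a step chosen after the values were seen. The sum still depends on the counting, since each copy is divided by its own length and shared reads may have been left out. The alpha pair stood at 146 and 93.4 RPKM in control and at 105 and 63.4 RPKM in knockout (log2 fold change -0.51, SE 0.18, limma adjusted p = 0.0767). The beta pair stood at 163 and 166 RPKM in control and at 193 and 79.7 RPKM in knockout, and its log2 fold change was -0.41 (SE 0.17, limma adjusted p = 0.1998). Neither sum passed the threshold, and the beta groups overlapped, so the call for Hbb-bs was not made for the summed pair. Neutrophil and myeloid progenitor markers were also lower in knockout. All 10 were called lower, where 0.86% of all tested genes were. They summed to 68932 and 71457 RPKM in control and to 48699 and 31358 RPKM in knockout. Most of these calls were lost when either control library or knockout replicate 2 was left out, fits in which few genes were called at all. After rescaling 0 were called, where 0% of all tested genes were, and the median log2 fold change of these markers was -1.34 (-0.98 before). As for the globins, knockout replicate 2 was the lowest library, and the part of these cells in the globin values was not tested.

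Within the beta pair, the share of Hbb-bt was higher in both knockout libraries than in either control. Reads assigned to Hbb-bt made up 37.0% (95% exact binomial interval 35.8 to 38.2%, 5987 reads) and 35.7% (34.6 to 36.8%, 6865 reads) of the pair in the control libraries. In the knockout libraries they made up 55.4% (54.1 to 56.8%, 5607 reads) and 48.0% (45.9 to 50.1%, 2302 reads). The intervals cover counting error only and do not include copies made during amplification. Hba-a2 held 14.5% and 14.9% of the alpha pair reads in control and 12.1% and 13.7% in knockout, a smaller difference. The interval of knockout replicate 1 (10.9 to 13.3%) excluded both control shares, and that of knockout replicate 2 (12.2 to 15.4%) included both. With 2 libraries per group no exact permutation test of such a share can reach 0.05, and none is given. These shares do not depend on how the libraries are scaled.

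**Figure D2:**
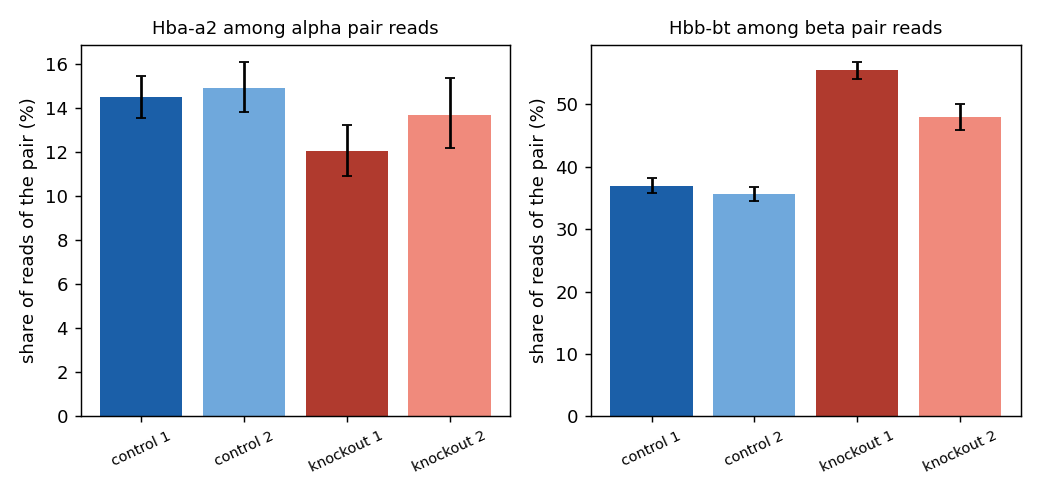
Share of reads (%) assigned to Hba-a2 within the alpha pair (left) and to Hbb-bt within the beta pair (right) in each library, with 95% exact binomial intervals. The Hbb-bt share is 37.0% and 35.7% in control and 55.4% and 48.0% in knockout, and the Hba-a2 share lies between 12.1% and 14.9%.

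The ratio of alpha to beta globin RPKM was 0.896 and 0.561 in control and 0.543 and 0.795 in knockout, with overlapping groups. All 4 globins together held 0.0207% and 0.0172% of reads in control and 0.0201% and 0.00964% in knockout. By level, Hba-a1 ranked between position 560 and 1400 of the 12390 genes over the libraries and Hbb-bs between 618 and 1683, far from the head of the table. As a measure that no scaling of the libraries can move by much, the mean log2(RPKM + 1) of the 4 regulators minus that of the 4 globins was -1.84 and -2.03 in control and -1.32 and -0.10 in knockout. The gap between the 2 knockout libraries was wider than the gap between knockout replicate 1 and either control.

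Car1 and Car2, cytosolic enzymes that convert carbon dioxide to bicarbonate, were the most abundant of the 10 genes. Car2 (chromosome 3, 14886273 to 14900770) stood at 1141 and 759 RPKM in control and at 1281 and 1109 RPKM in knockout, and ranked between position 53 and 107 of all genes. The groups overlapped, and the log2 fold change was 0.36 (SE 0.16, limma adjusted p = 0.253), close to the median of all genes. Car1 (chromosome 3, 14766216 to 14808368, minus strand), an early marker of erythroid commitment, stood at 634 and 196 RPKM in control and at 513 and 280 RPKM in knockout. Each group held a high and a low library, and the log2 fold change was 0.10 (SE 0.16, limma adjusted p = 0.670; 95% interval -0.22 to 0.42). The ratio of Car2 to Car1 was 1.80 and 3.87 in control and 2.50 and 3.97 in knockout.

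A further pair of carbonic anhydrase genes lies on chromosome 3 beside them. Car3 (14863512 to 14872523), an isoform of muscle and fat, rose from 4.95 and 4.09 RPKM in control to 44.4 and 23.2 RPKM in knockout (log2 fold change 2.59, SE 0.27, limma adjusted p = 6.52e-19). Car13 (14641727 to 14663002) stood at 5.78 and 6.49 RPKM in control and at 10.2 and 13.0 RPKM in knockout (log2 fold change 0.82, limma adjusted p = 0.113). Of 14 other carbonic anhydrases listed, 4 were in the table and 3 tested, of which Car3 alone was called. Osteoblast and stroma markers moved with Car3. All 6 of those in the table were called higher, where 3.33% of all tested genes were. Most or all of these calls held with each library left out. After rescaling 0 were called, where 0% of all tested genes were, and their median log2 fold change was 2.77 (3.12 before). These markers summed to between 206 and 344 RPKM in control and between 1297 and 4845 RPKM in knockout. Their part in the Car3 value was not tested.

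Of the 10 genes, 2 were called higher (Gata1 and Hemgn) and 1 lower (Hbb-bs), where 3.33% of all tested genes were called higher, 0.86% lower and 4.19% either way. Groups did not overlap for 4 genes in the higher direction (Gata1, Klf1, Epor, Hemgn) and for 2 in the lower direction (Hba-a2, Hbb-bs). Over all tested genes the shares were 55.5% and 7.38%, so 4 of 10 in the higher direction is below the background share. After TMM-type rescaling, which removes the overall shift and left a median of 0.01, limma called 0 of the 10 and 0% of all genes in either direction. The unadjusted p was then under 0.05 for 2 higher genes and 1 lower gene. Voom on rescaled reads also called 0. Groups then did not overlap for 3 higher genes (Gata1, Epor, Hemgn) and 2 lower genes (Hba-a2, Hbb-bs), against 28.5% and 26% of all genes.

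**Figure D3:**
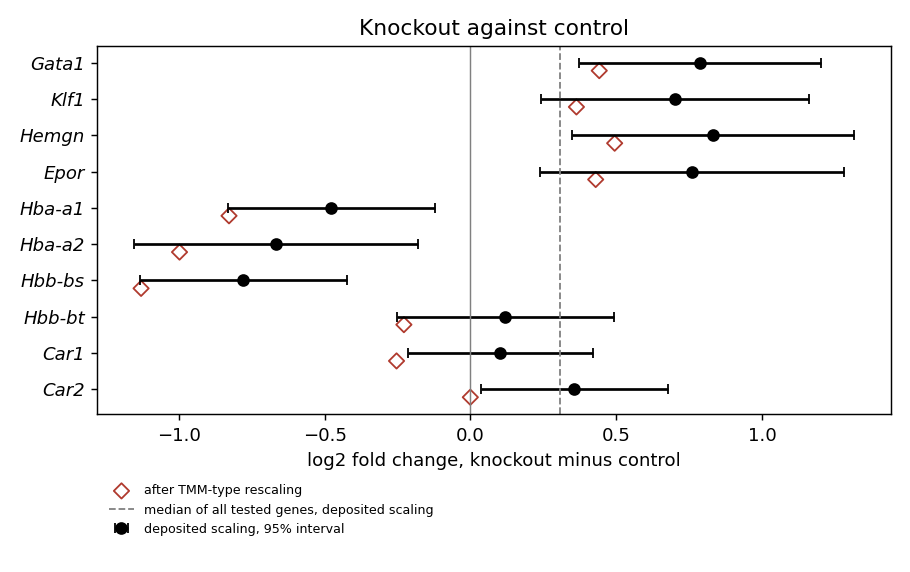
Log2 fold change, knockout minus control, of the 10 genes with its 95% interval (black), the value after TMM-type rescaling (open diamonds) and the median of all tested genes (dashed, 0.31). Rescaling shifts every gene down by about the same amount, leaves the regulators between 0.36 and 0.49 and takes Hba-a1, Hba-a2 and Hbb-bs to between -1.13 and -0.83.

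The calls of Gata1, Hemgn and Hbb-bs were lost without either control library and without knockout replicate 2, and stood without knockout replicate 1. Each of these fits leaves 1 library in a group, so its error rests on the spread within the other group. A lost call therefore need not mean a smaller change. The log2 fold change of Gata1 was 1.09 without control replicate 1 and 0.49 without control replicate 2, against 0.79 with all 4 libraries. Without control replicate 1 limma called 0 of the 10 genes (unadjusted p under 0.05 for 5 higher and 1 lower; 0.315% of all genes called higher, 0.0426% lower). Without control replicate 2 it also called 0 (unadjusted p under 0.05 for 0 higher and 4 lower; 0.23% and 0.0766% of all genes). Without knockout replicate 1, Gata1, Epor and Hemgn were called higher and all 4 globins lower, where 54.3% of all genes were called higher and 4.48% lower. Without knockout replicate 2, Hbb-bt alone was called, and it was called higher (0.818% and 0.111% of all genes). Hbb-bt therefore passed the threshold in opposite directions, with a log2 fold change of -0.61 without knockout replicate 1 and of 0.86 without knockout replicate 2. Car1 ran from -0.74 without control replicate 2 to 0.95 without control replicate 1. The 4 regulators were higher in each of these fits, between 0.41 and 1.13, and Hba-a1, Hba-a2 and Hbb-bs lower, between -1.30 and -0.10.

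**Figure D4:**
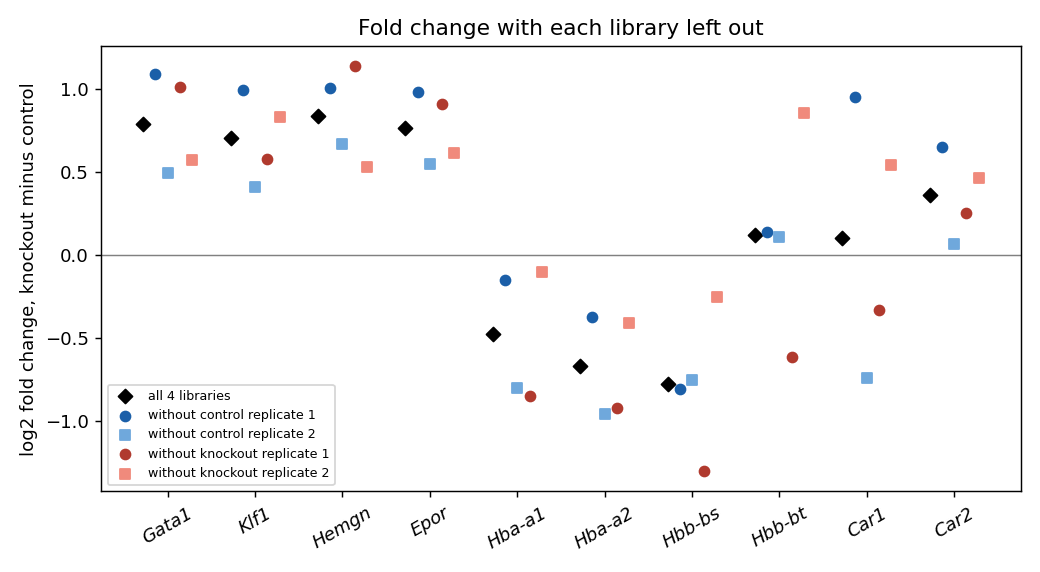
Log2 fold change, knockout minus control, with all 4 libraries (diamonds) and with each library left out in turn (circles for replicate 1, squares for replicate 2). The regulators lie above 0 and Hba-a1, Hba-a2 and Hbb-bs below 0 in every fit, while Car1 (-0.74 to 0.95) and Hbb-bt (-0.61 to 0.86) change sign.

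The control libraries differed from each other in these genes. Car1 was 1.69 higher on the log2(RPKM + 1) scale in control replicate 1 than in replicate 2, and 0.0852% of all tested genes lay as far apart. Hba-a1 (0.65), Gata1 (0.60), Car2 (0.59), Klf1 (0.58), Hba-a2 (0.58) and Epor (0.43) were also higher in control replicate 1, where the median difference of all genes was 0.06. Hbb-bs (-0.05) and Hbb-bt (0.03) were level between the controls, so the alpha and beta globins did not move together there. Between the knockout libraries the beta globins lay furthest apart, Hbb-bt by 1.47 and Hbb-bs by 1.05 higher in replicate 1, where the median of all genes was -0.36.

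The genes whose profile over the 4 libraries lay nearest to the mean of the globins were Rps13-ps2, Gm11361, Gm15590, Gm8623 and Gm24270, at Euclidean distances between 0.0524 and 0.176 of centred log2 values. All 5 carry pseudogene or predicted names, none of them erythroid, and Rps13-ps2 stood at 68.4 and 56.2 RPKM in control and at 63.5 and 31.1 RPKM in knockout. A search for the 8 genes nearest to Car1 was chosen after the values were seen. The nearest were Mir3473a (distance 0.252), Gm10800 (0.260), Gm24468 (0.299), Gm44083 (0.452) and Cnn3 (0.471). Further away came Rhd (0.474), which encodes the Rh blood group antigen, Mir3075 (0.512) and Cldn13 (0.521), a claudin of erythroid progenitors. With 4 libraries such likeness is a description only.

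Genes of the red cell membrane and late maturation showed the same split between the control libraries as Car1. Of 28 listed, 22 were in the table and 21 tested. In 17 of the 21 the level was higher in control replicate 1, with a median difference of 0.57 on the log2 scale. Over all tested genes the median difference was 0.06, and the share of them higher in control replicate 1 was not counted. The split was not particular to red cell genes. Its median was 0.94 for eosinophil, basophil and mast cell markers and 0.76 for monocyte and macrophage markers, with 8 of 8 higher in control replicate 1 in each list. The ammonium channel gene Rhag stood at 20.7 and 7.70 RPKM in control and at 26.1 and 19.8 RPKM in knockout, with overlapping groups, and was called higher (log2 fold change 0.79, SE 0.25, limma adjusted p = 0.0370). Mfsd2b, the sphingosine-1-phosphate exporter of red cells, rose without overlap from 16.0 and 10.9 to 20.2 and 36.2 RPKM (log2 fold change 0.98, SE 0.24, limma adjusted p = 0.00255). These 2 were called higher and 0 lower, with a list median of 0.37. Slc4a1, the band 3 anion exchanger of mature red cells, was low in all libraries, between 0.930 and 1.54 RPKM. Other globins, embryonic ones among them, and the alpha globin chaperone, 9 genes listed, had no row in the table. Every gene in the table reached at least 1.0063 RPKM in some library, so a missing row need not mean an absence of reads.

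**Figure D5:**
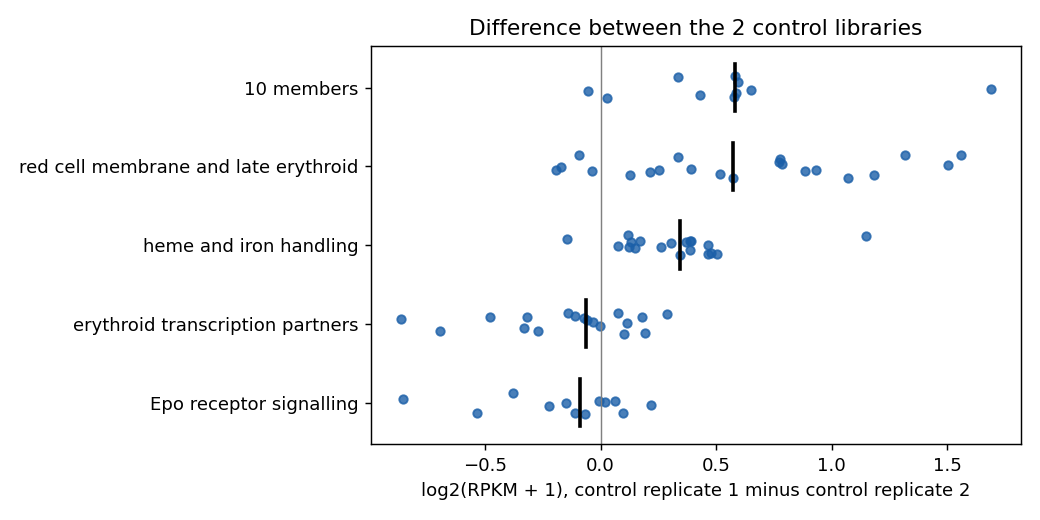
Difference in log2(RPKM + 1) between control replicate 1 and control replicate 2 for the 10 genes and for 4 related gene lists, each point a tested gene and each black bar a median. Of the sets shown, the 10 genes (0.58) and the membrane list (0.57) lie furthest to the right. The heme and iron genes (0.35) lie between, and the transcription partners (-0.06) and Epo receptor signalling (-0.09) lie near 0. Marker lists of other cell types are not shown.

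Partners of GATA1 and KLF1 were compared next. Of 18 listed transcription factors all were tested, 1 was called higher and 0 lower, and the list median was 0.46. Gata2, the stem and progenitor member of the family that GATA1 replaces during maturation, rose from 18.1 and 29.9 to 30.6 and 55.3 RPKM (log2 fold change 0.80, SE 0.21, limma adjusted p = 0.00848). Gfi1b, a repressor of erythroid and megakaryocyte cells, had a log2 fold change of 0.54 (limma adjusted p = 0.112). Tal1 stood at 0.64 and Ldb1 at 0.64, with limma adjusted p-values of 0.314 and 0.313. For 12 of the 18, both knockout libraries lay above both controls, near the 55.5% of all tested genes. Among 4 factors of other lineages that oppose GATA1 or KLF1, limma called 0 (0 at an unadjusted p under 0.05, and 0 by voom on rescaled reads). The myeloid factor Spi1 was at -0.21 (limma adjusted p = 0.476), and Fli1, which favours megakaryocytes, at 0.11 (limma adjusted p = 0.721).

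Downstream of the erythropoietin receptor, 12 of 14 listed genes were tested, 1 was called higher and 0 lower, with a median of 0.40. Cish, a STAT5-induced inhibitor of cytokine signalling, rose from 2.24 and 4.86 to 6.86 and 13.1 RPKM (log2 fold change 1.27, SE 0.33, limma adjusted p = 0.00503). Socs2, another STAT5 target, stood at 2.83 and 3.98 RPKM in control and at 5.58 and 9.33 RPKM in knockout (log2 fold change 0.92, limma adjusted p = 0.106). Many cytokine receptors signal through STAT5, so these genes are not specific to Epor. The kinase gene Jak2 (0.25) lay below the median of all genes, Stat5b (0.30) near it and Stat5a (0.49) above it.

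Of 20 heme and iron genes 19 were tested, 0 were called higher and 1 lower, with a median of 0.31. The lower gene was Alas1, the housekeeping first enzyme of heme synthesis, which fell from 210 and 192 to 151 and 125 RPKM (log2 fold change -0.54, SE 0.17, limma adjusted p = 0.0351). Alas2, its erythroid counterpart, was low throughout, between 1.21 and 2.08 RPKM, with a log2 fold change of -0.02 (limma adjusted p = 0.965). Hmox1, which breaks heme down, stood at 12.2 and 4.96 RPKM in control and at 11.2 and 14.6 RPKM in knockout (0.64, limma adjusted p = 0.241). In 18 of the 19 the level was higher in control replicate 1 than in replicate 2. The median difference was 0.35, where that of all tested genes was 0.06. The calls for Gata2, Cish, Mfsd2b, Rhag and Alas1 were each lost after rescaling, where 0% of all tested genes were called. They were also lost without either control library and without knockout replicate 2, and that for Rhag also without knockout replicate 1. The Car3 call held with each library left out. It was lost after rescaling, where 0% of all tested genes were called, with a log2 fold change of 2.27.

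Other cells that use these genes had markers in the same libraries. Megakaryocyte markers, which share Gata1, had 7 of 8 in the table. They summed to 411 and 382 RPKM in control and to 553 and 866 RPKM in knockout, in the same order of libraries as Gata1 and Hemgn. The median log2 difference of all tested genes from the control mean had this order too (control 0.028 and -0.028, knockout 0.119 and 0.502). Of the 7 megakaryocyte markers tested, 4 were called higher, where 3.33% of all tested genes were, and 0 after rescaling, where 0% were. The calls were lost when either control library or knockout replicate 2 was left out. They stood without knockout replicate 1, a fit in which most genes were called higher. Eosinophil, basophil and mast cell markers had 8 of 9 in the table and summed to 8492 and 5054 RPKM in control and to 9364 and 5198 RPKM in knockout, most of it the granule gene Prg2. All 8 were higher in control replicate 1 than in replicate 2, as were Gata1 and Car1, where the median difference of all tested genes was 0.06. Monocyte and macrophage markers, 8 of 8 in the table, summed to 97.7 and 63.6 RPKM in control and to 73.6 and 75.8 RPKM in knockout. The part of these cells in the values of Gata1, Hemgn and Car1 was not tested.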

How the data were processed

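RNA-seq libraries from sorted bone marrow cells (2 control, 2 knockout) were made with a Smart-seq kit, per the labels' protocols. The authors deposited 1 RPKM value per gene and library, a unit identified here from the values, with 0.001 for a gene without reads. The genome build named in the submitters' processing notes is mm10. No source used here names the aligner or counter. Symbols, lengths and positions came from GENCODE M21 (12384 symbols). RPKM times the length of the longest GENCODE transcript gave whole multiples of 1 step per library, within 0.1 for 99.4% of values, and these multiples are the read numbers given. Columns were matched to samples by library name.

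The 11742 genes averaging 1 RPKM or more were tested genome-wide with limma 3.58.1 in R 4.3.3 on log2(RPKM + 1), with a mean-variance trend, 2 residual degrees of freedom and infinite prior degrees of freedom. The fit was tested on simulated data without an overall shift between libraries, so that test does not cover the shift seen here. TMM-type rescaling trimmed 30% by ratio and 5% by level. The 10 genes and the lists were chosen with earlier results of these data known. Named list genes are those called, up to 4 by smallest p, or the 2 smallest p-values where fewer than 2 were called, plus the 5 genes nearest to the globin profile, and others named were chosen after their values were seen.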

Additional observations from a re-analysis of the deposited data

How the results depend on the processing

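A pseudocount of 0.1, no filter and a mean of at least 5 RPKM kept 2 of the 10 genes called higher and 1 lower. Over all genes these settings called 3.42%, 3.54% and 3.53% higher and 0.911%, 0.92% and 1.4% lower. TMM-type rescaling, quantile normalization, limma without the trend and voom on rescaled reads each called 0 higher and 0 lower, with the cause not tested. The unadjusted p was under 0.05 for 2 higher and 1 lower, 4 and 1, 4 and 2, and 3 and 3 of them. Over all genes, rescaling and quantile normalization called 0% either way, the fit without the trend 3.18% higher and 0.443% lower, and voom 0.29% and 0.0852%. With the replicate number as a replicate block, limma called 0 higher (5 at an unadjusted p under 0.05) and 1 lower, where 1.49% and 0.545% of all genes were called, with Gata1 at an adjusted p of 0.0514. Same-numbered libraries share only a number (correlation of their deviations 0.0668 over 2 pairs). Leaving out a library gave 0 to 3 called higher and 0 to 4 lower. Signs turned for Hbb-bt (-0.23 rescaled, -0.067 quantile, -0.27 voom, -0.61 without knockout replicate 1, up to 0.86 without knockout replicate 2), Car1 (-0.25 rescaled, -0.20 voom, -0.74 without control replicate 2, -0.33 without knockout replicate 1, up to 0.95 without control replicate 1) and Car2 (-0.00017 rescaled). These genes held between 256 and 114265 reads per library, and precision is limited by the 2 libraries per group.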
